A study of Mus musculus with 6 samples.

Results

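A set of 10 genes of the prostaglandin and leukotriene pathway was examined in bone marrow-derived macrophages of mice lacking Cd28 (Cd28 KO) and of wild-type mice. The 10 genes were taken by symbol from 14574 genes listed in any library: Ptgs1, Ptgs2, Ptges, Hpgds, Tbxas1, Alox5 and Alox5ap for synthesis, Hpgd for breakdown, and Ptger2 and Ptger4 as receptors. All 10 were listed in all 6 libraries. They were selected on their role in the pathway, with earlier results of this comparison known. The measured values behind the choice were the level and difference of Hpgd, whose limma adjusted p was 0.042 when the replicate number was a block and 0.9995 when it was not. Differences of the 10 genes between genotypes are therefore given as a description, with no test.

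Each genotype had 3 libraries, made from total RNA. The wild-type group (WT) is labelled C57BL/6J, and all marrow came from femurs of mice aged 6 to 10 weeks. Every culture was kept for 7 days in DMEM with 10% serum, 2-ME and human M-CSF, the growth factor that drives marrow cells to become macrophages, at 25 ng/ml and renewed every 2 days. There was no further treatment. The labels do not give the part of Cd28 that was removed, the background of the knockout mice, whether WT mice were littermates or whether each library is 1 animal, so error terms measure only the spread between these samples. Values are FPKM, fragment counts scaled to transcript length and to the size of the library, so they may be compared between genes within a library. The FPKM of a library summed to 510937 to 576313, lowest in WT replicate 3 and highest in Cd28 KO replicate 3, so a narrow gap between libraries can depend on the scale. Where it does, the values after scaling each library to the same total (the TPM scale) are given too. The number of reads is unknown, and no counting error can be given.

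Prostaglandins and leukotrienes are short-lived lipid signals made from arachidonic acid. Phospholipases release the acid from membranes. The cyclooxygenases encoded by Ptgs1 (the constitutive form) and Ptgs2 (the inducible form) turn it into prostaglandin H2, which terminal synthases convert to prostaglandin E2 (Ptges), prostaglandin D2 (Hpgds) or thromboxane (Tbxas1). In the other branch, 5-lipoxygenase (Alox5) and its membrane partner FLAP (Alox5ap) start the synthesis of leukotrienes. Hpgd encodes 15-hydroxyprostaglandin dehydrogenase, which inactivates prostaglandins inside the cell. Ptger2 and Ptger4 encode the prostaglandin E2 receptors EP2 and EP4, which raise cyclic AMP. Macrophages are a major source of these lipids in inflamed tissue.

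The sequences shown are those before the RefSeq start (GRCm38.p6) of Hpgd, the member with the largest difference between genotypes, and of Ptgs2, the member that varied most between libraries. A set of 4 motifs was searched on both strands: TATAAA (the TATA box), CGTCA (the core of the cyclic AMP response element), CACGTG (an E-box) and TTGCNNAA (a form bound by C/EBP factors). Matches are in capitals. The Hpgd window is chr8:56294302-56294551 and the Ptgs2 window chr1:150099781-150100030, both on the plus strand and 250 bases long. A further stretch of 30 bases, chr1:150100033-150100062, lies just after the annotated start of Ptgs2.
Hpgd: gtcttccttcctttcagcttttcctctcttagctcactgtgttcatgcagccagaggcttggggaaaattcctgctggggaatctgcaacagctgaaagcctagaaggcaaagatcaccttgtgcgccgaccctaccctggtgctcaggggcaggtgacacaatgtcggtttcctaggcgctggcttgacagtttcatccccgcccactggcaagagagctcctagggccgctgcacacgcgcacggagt
Ptgs2: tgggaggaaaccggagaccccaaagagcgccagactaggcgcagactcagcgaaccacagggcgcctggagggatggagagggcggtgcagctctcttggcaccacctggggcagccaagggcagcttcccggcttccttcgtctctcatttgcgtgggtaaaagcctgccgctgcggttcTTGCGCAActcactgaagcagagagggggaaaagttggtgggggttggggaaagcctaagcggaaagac
Ptgs2 after the start: agtcaccactaCGTCACGTGgagtccgctt

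The 250 bases of Hpgd held none of the 4 motifs, and a TATAAA stood at bases 5 to 10 after its annotated start. The window of Ptgs2 held 1 match, TTGCGCAA, from 69 to 62 bases before the start. That form was present in 9.6% of 32851 promoter windows of this length. After the start of Ptgs2 a CGTCA at bases 14 to 18 overlapped a CACGTG at bases 17 to 22. CGTCA was present in 3.5% of all windows of the 50 bases after a start and CACGTG in 1.1%. The overlapping CGTCACGTG, present in 0.0639%, was not among the 4 motifs. Its letters are those of this match, so nothing is read from its rarity. Of the 10 genes, 9 had a window in the table, and a CGTCA or a CACGTG was found in none of the other 8, before or after the start. In the 250 bases before a start, CGTCA was present in 17.8% of all windows, CACGTG in 6.0% and TATAAA in 12.4%. Most windows thus lack each motif, and nothing is read from their absence here. A match is a description of the letters, and binding was not measured.

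The libraries listed 12768 to 13327 genes each. Cd28 was lower in every library labelled Cd28 KO, at 24.2 to 26.9 FPKM, than in any WT library, at 30.1 to 51.1 FPKM, and was listed in all. The groups stayed apart on the TPM scale and with quantile normalization, and overlapped with median centring. In both genotypes the replicate 3 library lay away from the rest: on principal component 1, with 73.8% of the variance, they scored 34.8 and 36.1 and the other 4 libraries -18.2 to -17.4. The 4 Y-linked genes that reached 1 FPKM in any library were listed in the replicate 3 libraries alone. Replicate number and sex can therefore not be told apart here, while each genotype had 1 such library. The 8 macrophage markers, among them Csf1r and Adgre1, were listed in all libraries. Lyz2, the lysozyme gene, made up most of their sum, at 10518 to 12716 FPKM for Cd28 KO against 9652 to 10639 for WT, and the other 7 summed to 3978 to 4261 against 4144 to 4452.

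Markers of other cells that make these lipids were low. Mast cells are rich in Hpgds and Alox5: the sum over 11 mast cell markers was 2.25 to 3.52 FPKM for Cd28 KO against 3.31 to 5.95 for WT, and without Kit 0.65 to 1.79 against 0.51 to 2.07, with Mcpt4, Tpsb2, Tpsab1 and Cma1 listed in no library. The 8 megakaryocyte and platelet markers, cells rich in Ptgs1 and Tbxas1, summed to 8.45 to 9.16 FPKM against 6.35 to 9.80, most of it from Treml1 and Itgb3. The 10 neutrophil markers summed to 7.20 to 11.9 FPKM against 5.48 to 10.1, and the 7 of eosinophils and basophils to 1.76 to 2.98 against 2.72 to 4.23. In bulk RNA, more cells of a type and more RNA per cell cannot be told apart.

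**Figure D1:**
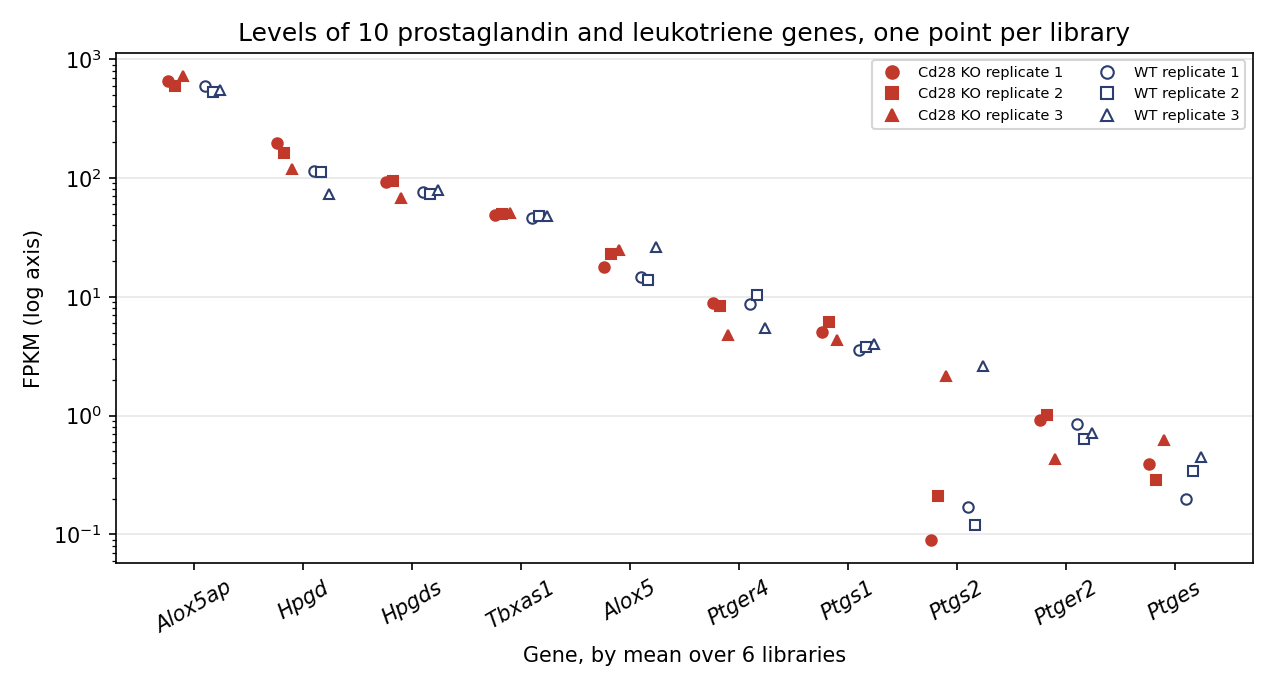
FPKM of the 10 genes on a log axis, ordered by their mean, with 1 point per library, colour for genotype and shape for replicate number. Alox5ap lies at 534 to 719 FPKM, above every other gene, and the 2 replicate 3 points of Ptgs2, at 2.15 and 2.61, lie far above its other 4.

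The 10 genes spanned more than 3 orders of magnitude in level. Alox5ap was the most abundant, with a mean of 607 FPKM over the 6 libraries, followed by Hpgd at 129, Hpgds at 80.4, Tbxas1 at 48.5 and Alox5 at 20.0. Ptger4 averaged 7.78 FPKM and Ptgs1 4.48. Ptgs2, Ptger2 and Ptges had means of 0.892, 0.762 and 0.382 FPKM and so fell below the minimum mean of 1 FPKM set for the tests, which left 7 of the 10. In this order the ranges of neighbours overlapped for Hpgd with Hpgds, Ptger4 with Ptgs1, Ptgs2 with Ptger2 and Ptger2 with Ptges. Among the terminal synthases in the set, those of prostaglandin D2 and thromboxane were thus listed far above the inducible synthase of prostaglandin E2. This does not extend to the prostaglandin E2 synthases outside the set, as Ptges3 averaged 56.1 FPKM and Ptges2 6.31.

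Hpgd, the prostaglandin-inactivating enzyme (Entrez 15446, chromosome 8, 56294552 to 56321046), had the largest difference between genotypes among the 10. Its level was 195, 161 and 118 FPKM in Cd28 KO replicates 1, 2 and 3, and 115, 112 and 73.4 in WT. The lowest Cd28 KO value, that of replicate 3, lay just above the highest WT value in FPKM, a narrow margin. On the TPM scale that value, 205 TPM, lay below 215 and 209 in WT replicates 1 and 2, so the groups overlapped, and they overlapped with quantile normalization. With median centring they stayed apart. Cd28 KO averaged 158 ± 38.6 FPKM and WT 100.3 ± 23.4 (SD, n = 3 each), a ratio of 1.58. At equal replicate numbers the ratio was 1.69, 1.44 and 1.61. On the log2(FPKM + 1) scale the difference was 0.65 ± 0.24 (SE), and the SE was 0.09 with the replicate number as a block. Replicate 3 was lower within each genotype, at 0.663 times the mean of replicates 1 and 2 in Cd28 KO and 0.645 times in WT. The difference ranged from 0.44 without WT replicate 3 to 0.84 without Cd28 KO replicate 3.

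Of the cyclooxygenases, Ptgs1 was the more abundant and Ptgs2 was near the lower end of the files. Ptgs1 (Entrez 19224, chromosome 2, 36216742 to 36258593) stood at 5.04, 6.18 and 4.33 FPKM in Cd28 KO and 3.56, 3.80 and 3.99 in WT. In FPKM the groups did not overlap, the smallest gap being between the 2 replicate 3 libraries. On the TPM scale they did, with 7.51 TPM in Cd28 KO replicate 3 and 7.81 in WT replicate 3. The groups stayed apart with median centring and with quantile normalization. Its means were 5.18 ± 0.933 and 3.78 ± 0.215 FPKM (SD, n = 3 each), with a log2 difference of 0.36 ± 0.16 (SE), which was 0.25 without Cd28 KO replicate 2. Ptgs2 (Entrez 19225, chromosome 1, 150100031 to 150108234) stood at 0.09, 0.21 and 2.15 FPKM in Cd28 KO and 0.17, 0.12 and 2.61 in WT. Its genotypes overlapped, and both replicate 3 libraries lay above the other 4. The level of Ptgs1 was 1.53 to 2.01 times that of Ptgs2 in the replicate 3 libraries and 20.9 to 56.0 times in the others, where Ptgs2 is close to the lowest values listed.

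The terminal prostanoid synthases of the set had smaller differences between genotypes than Hpgd and Ptgs1, of 0.07 to 0.13 on the log2(FPKM + 1) scale. Hpgds (Entrez 54486, chromosome 6, 65117293 to 65144981), which makes prostaglandin D2, stood at 92.7, 93.9 and 67.4 FPKM in Cd28 KO and 75.9, 73.6 and 79.1 in WT. Cd28 KO was higher at replicates 1 and 2 and lower at replicate 3, so the groups overlapped. The log2 difference of Hpgds was 0.13 ± 0.14 (SE), 0.32 in replicates 1 and 2 alone, 0.053 when Cd28 KO replicate 2 was left out and 0.062 when its replicate 1 was. Tbxas1 (Entrez 21391, chromosome 6, 38864159 to 39084590), the thromboxane synthase, was the steadiest of the 10, at 45.9 to 50.8 FPKM over the 6 libraries. Its Cd28 KO values of 49.1, 49.5 and 50.8 FPKM lay just above the WT values of 45.9, 47.7 and 48.0, with a log2 difference of 0.07 ± 0.09 (SE). On the TPM scale that difference was 0.02 and the groups overlapped, at 88.0 to 95.3 TPM in Cd28 KO and 85.3 to 94.0 in WT. Ptges (Entrez 64292, chromosome 2, 30889471 to 30931020), the inducible prostaglandin E2 synthase, stood at 0.39, 0.29 and 0.62 FPKM in Cd28 KO and 0.20, 0.34 and 0.45 in WT, with overlapping groups. The log2(FPKM + 1) scale understates changes at so low a level. In FPKM the ratio of the Cd28 KO mean to the WT mean was 1.31 for Ptges and 1.37 for Ptgs1.

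The level of Hpgd relative to Hpgds, the ratio of the enzyme that breaks prostaglandins down to the one that makes prostaglandin D2, was 2.11, 1.71 and 1.75 in Cd28 KO. It was 1.52, 1.52 and 0.928 in WT, so the genotypes did not overlap. This ratio is free of the scaling of each library, but it depends on the gene that Hpgd is divided by. Hpgds was lowest in Cd28 KO replicate 3, at 67.4 FPKM. Divided by Tbxas1 or by Alox5ap instead, Hpgd overlapped between the genotypes. The ratio also rests on Hpgd, which was chosen for its difference. Ratios of Ptgs1 to Ptgs2, Alox5ap to Alox5, Hpgds to Tbxas1 and Ptger4 to Ptger2 overlapped between the genotypes. The share of such separations over all genes was not computed.

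In the leukotriene branch, Alox5ap and Alox5 were higher on average in Cd28 KO, with overlapping groups. Alox5ap (Entrez 11690, chromosome 5, 149265004 to 149288153), the membrane partner of 5-lipoxygenase, stood at 650, 590 and 719 FPKM in Cd28 KO and 594, 534 and 554 in WT. Cd28 KO was higher at each replicate number, but its replicate 2 lay below WT replicate 1. On the TPM scale the groups did not overlap, at 1136 to 1247 TPM against 997 to 1104. They overlapped with median centring and with quantile normalization. The log2 difference was 0.22 ± 0.11 (SE), and 0.10 with quantile normalization. Alox5 (Entrez 11689, chromosome 6, 116410071 to 116461178), the lipoxygenase itself, stood at 17.7, 22.8 and 24.8 FPKM in Cd28 KO and 14.8, 13.8 and 26.3 in WT. Both replicate 3 libraries were above the other 4, and WT replicate 3 held the highest value of all. The log2 difference of 0.28 ± 0.25 (SE) was 0.56 without WT replicate 3 and 0.12 without WT replicate 2.

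Neither receptor showed a separation of the genotypes. Ptger4 (Entrez 19219, chromosome 15, 5233399 to 5244187), which encodes EP4, stood at 8.88, 8.41 and 4.79 FPKM in Cd28 KO and 8.66, 10.4 and 5.47 in WT. The 2 lowest values were those of replicate 3, at 0.554 times the mean of replicates 1 and 2 in Cd28 KO and 0.573 times in WT. The log2 difference between genotypes was -0.14 ± 0.29 (SE), and it changed sign, to 0.11 without Cd28 KO replicate 3 and to 0.04 without WT replicate 2. Ptger2 (Entrez 19217, chromosome 14, 44988111 to 45003820), which encodes EP2, stood at 0.92, 1.02 and 0.43 FPKM in Cd28 KO and 0.85, 0.64 and 0.71 in WT. Cd28 KO replicate 3 was the lowest of the 6, and the ranges overlapped.

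**Figure D2:**
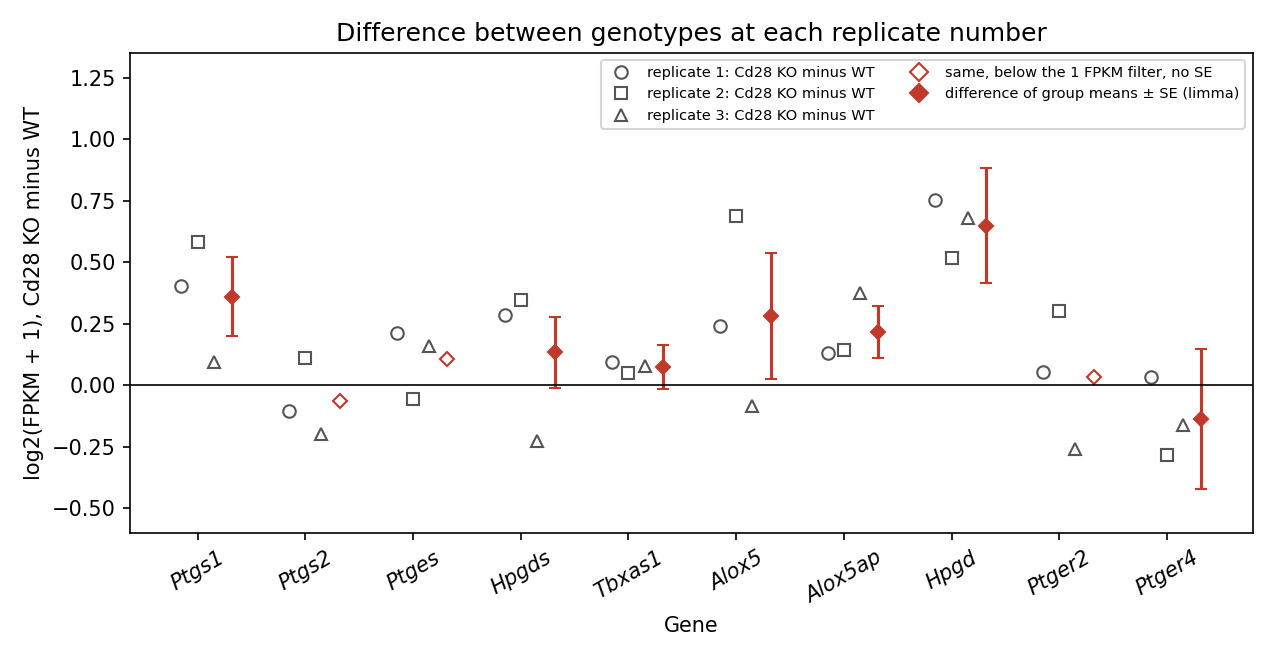
Cd28 KO minus WT in log2(FPKM + 1) for each of the 10 genes, with open symbols for the 3 replicate numbers and diamonds for the difference of the group means, with its SE where the gene was tested. Hpgd lies above 0 at all 3 numbers, from 0.52 to 0.75, while Hpgds and Alox5 are above 0 at replicates 1 and 2 and below it at replicate 3.

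Among the 7 tested members the log2 difference was above 0 in 6 and its median was 0.22, against 49.1% positive and a median of -0.00 over all 10172 tested genes. The share positive over all tested genes was 34.8% on the TPM scale, where 8 of all 10 members were positive. The separation counts that follow are out of all 10 members, 3 of them below the filter. The shares beside them cover tested genes only. In FPKM every Cd28 KO library lay above every WT library in 3 of the 10, Hpgd, Ptgs1 and Tbxas1, as in 3.84% of all tested genes. All 3 overlapped on the TPM scale, and 1 other member, Alox5ap, was separated, as were 2.35% of all tested genes. No member lay wholly below on either scale, as 2.87% and 3.92% of tested genes did. In 4 (Hpgd, Ptgs1, Tbxas1 and Alox5ap) Cd28 KO was higher at each replicate number in FPKM, as in 15.0% of tested genes, and in 2 (Hpgd and Alox5ap) on the TPM scale, as in 8.93%. Limma called 0 of the 7 members without a block, where it called 0.0197% of all tested genes. With the replicate block it called 1, Hpgd, as higher, and of all genes 0.138% as higher, 0.0393% as lower and 0.177% in either direction. In replicates 1 and 2 alone it also called 1 member, Hpgd, and 0.698% of all genes. Since this comparison served to choose the genes, nothing is read from these counts.

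The replicate 3 libraries set the widest variation within the pathway. The level of Ptgs2 in replicate 3 was 14.3 times its mean in replicates 1 and 2 in Cd28 KO and 18.0 times in WT. Over all 10 genes, both replicate 3 libraries lay above the other 4 for 3 (Ptgs2, Ptges and Alox5) and below them for 1 (Ptger4). Over all 14574 listed genes these shares were 15.1% and 25.4%, and over the tested genes 15.3% and 33.7%, so 3 of 10 and 1 of 10 are not far from the background. These are descriptions of 2 libraries that were known to stand apart, with no test.

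Genes that cyclic AMP and other acute signals switch on were high in the same libraries as Ptgs2. Of the 16 genes in the list, all listed in at least 1 library, 15 were higher in both replicate 3 libraries than in the other 4. Rgs2 was lower in both. Over all listed genes 15.1% were higher and 25.4% lower in this way. The list was drawn up with earlier results of these data known, so the count is a description. Fosb, an immediate early transcription factor, stood at 73.5 and 51.8 FPKM in replicate 3 of Cd28 KO and WT and at 0.31 to 0.55 in the other 4. The nuclear receptor gene Nr4a1 stood at 53.5 and 40.2 FPKM against 3.64 to 4.75, and Dusp1, a phosphatase of stress kinases, at 152 and 148 against 8.25 to 13.3. Il10 stood at 10.1 and 9.78 FPKM against 1.08 to 3.54. The median difference of replicate 3 from replicates 1 and 2 over the 14 tested genes of the list was 2.49 in Cd28 KO and 2.62 in WT on the log2(FPKM + 1) scale, against -0.13 and -0.09 over all tested genes. Some of these passed the filter through replicate 3, so the medians support nothing on their own. Between genotypes the list had a median of -0.01, 7 genes in each direction and 0 called by limma with or without the block. The part of sex, culture day or handling in the replicate 3 pattern was not tested.

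**Figure D3:**
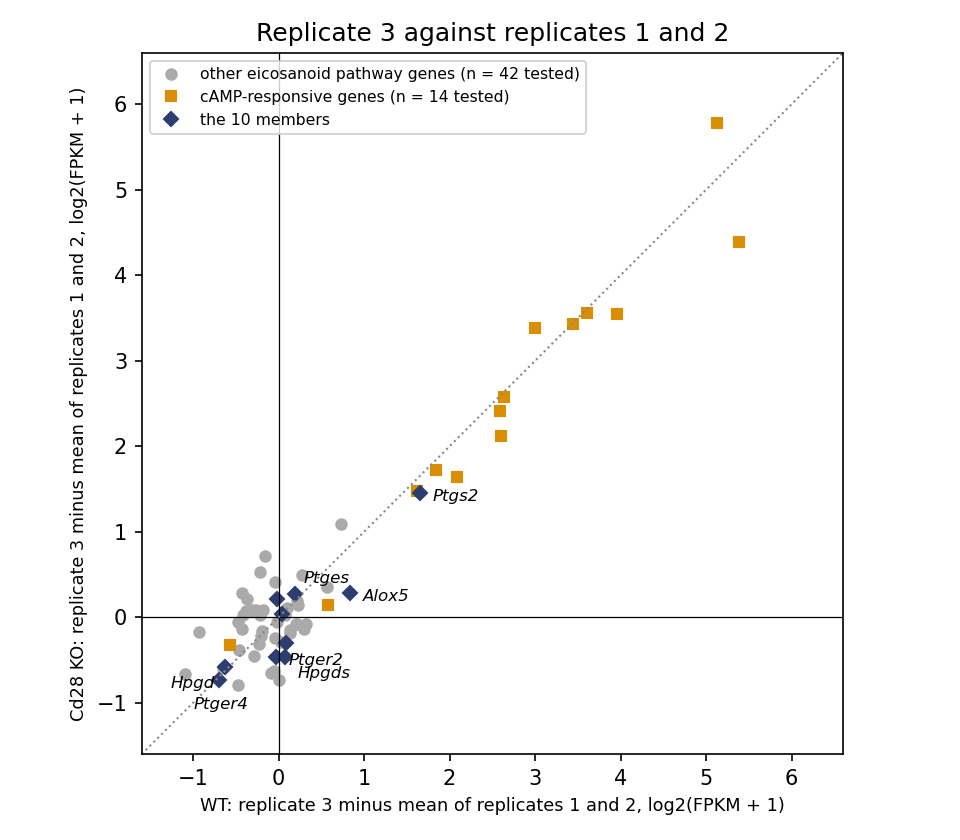
Replicate 3 minus the mean of replicates 1 and 2 in log2(FPKM + 1), WT on the x axis and Cd28 KO on the y axis, for the 10 members, the tested genes of the cyclic AMP list and the other tested eicosanoid genes. Ptgs2 lies at 1.66 in WT and 1.46 in Cd28 KO, and Hpgd and Ptger4 lie below 0 on both axes.

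The rest of the pathway was taken from a list of 81 further genes, sorted by role and drawn up with earlier results of these data known. Of these, 66 were listed in at least 1 library and 42 were tested. Limma called 0 of the 42 in either direction, without a block or with it. At an unadjusted p below 0.05 it listed 4, Dagla, Cbr1, Ltc4s and Mgst2, as it did 2.49% of all tested genes. Their log2 differences fell evenly, 21 positive and 21 negative, with a median of -0.01. In FPKM the Cd28 KO libraries lay wholly above WT in 2 of the 42 (Akr1b3 and Ptger3) and wholly below in 3 (Dagla, Mgst2 and Lpcat3). These are to be set beside 3.84% and 2.87% of all genes. Akr1b3 and Ptger3 overlapped on the TPM scale and 1 other, Ltc4s, lay wholly above, while 5 lay wholly below, the same 3 with Daglb and Mboat7.

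The list for release of arachidonic acid had 10 tested genes, not all of which free the acid directly. Abhd12, a serine hydrolase of lipid messengers, was the most abundant of them, with 261 ± 10.6 FPKM for Cd28 KO and 269 ± 33.6 for WT (SD, n = 3 each). Dagla, a lipase that makes the endocannabinoid 2-arachidonoylglycerol, stood at 2.06, 1.94 and 2.41 FPKM in Cd28 KO and 2.90, 3.50 and 3.85 in WT, with no overlap. Its log2 difference of -0.49 ± 0.16 (SE) had a limma adjusted p of 0.9995, and 0.34 with the replicate block. The cytosolic phospholipase Pla2g4a, chosen here for its role after its values were seen, stood at 8.78 ± 1.70 FPKM against 7.20 ± 0.989, with overlapping groups. Of the 6 tested genes that make arachidonic acid or return it to membranes, 5 were lower on average in Cd28 KO. The most abundant, the desaturase Fads1, stood at 61.9 ± 5.99 against 68.4 ± 5.97 FPKM.

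No other tested synthase of either branch was called. Akr1b3, an aldo-keto reductase that can form prostaglandin F2 alpha, stood at 146, 154 and 160 FPKM in Cd28 KO and 142, 144 and 126 in WT. The groups did not overlap in FPKM but did on the TPM scale, the log2 difference was 0.16 ± 0.10 (SE), and the limma adjusted p was 0.9995. Akr1b3 has close relatives such as Akr1b8, between which reads are shared by estimation. Mgst2, a microsomal relative of leukotriene C4 synthase, stood at 0.90, 0.76 and 0.76 FPKM against 1.51, 1.12 and 1.27, near the filter, with a limma adjusted p of 0.9995. Ltc4s, the leukotriene C4 synthase, stood at 44.9, 41.8 and 45.6 FPKM in Cd28 KO and 42.2, 26.3 and 25.4 in WT. WT replicate 1 fell within the range of Cd28 KO, and the log2 difference of 0.52 ± 0.20 (SE) had a limma adjusted p of 0.9995. Cbr1, a carbonyl reductase that acts on prostaglandin E2, stood at 35.5, 32.2 and 25.7 FPKM against 26.4, 21.8 and 17.1. Its groups overlapped, and its log2 difference of 0.51 ± 0.19 (SE) had a limma adjusted p of 0.9995, or 0.15 if the block was included. Ltc4s and Cbr1 were named because of their unadjusted p.

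Tested breakdown and transport genes other than Hpgd overlapped between the genotypes. Of the 7 tested breakdown genes, 4 were positive and 3 negative, with Ephx1, an epoxide hydrolase, the most abundant at 31.3 ± 5.56 against 28.4 ± 2.80 FPKM. Dpep2, a dipeptidase that turns leukotriene D4 into E4, was the most abundant of the leukotriene enzymes outside the members, with 334 ± 32.1 FPKM for Cd28 KO and 318 ± 50.7 for WT. Abcc1, an exporter of leukotriene C4, stood at 21.7 ± 2.38 against 23.5 ± 1.38 FPKM. The prostaglandin transporter Slco2a1 and the prostaglandin D2 receptor Ptgdr were listed in no library.

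Of the 14 other receptors 4 were tested. Their log2 differences were above 0 in 3 and below 0 in 1, and limma called 0 with or without the block. Ptger3, which encodes the prostaglandin E2 receptor EP3, stood at 2.86, 2.43 and 2.44 FPKM in Cd28 KO and 2.37, 1.37 and 2.28 in WT. The groups were separated by a small gap in FPKM and overlapped on the TPM scale, and the log2 difference of 0.27 ± 0.18 (SE) had a limma adjusted p of 0.9995. Of the members, Ptger4 was the one whose exons overlap another listed gene, sharing 1.2% of its exonic bases with Ttc33. PPAR gamma is a fatty acid receptor that oxidised prostaglandins can activate. Of its list of 11 genes 8 were tested, 7 of them with a negative difference and a median of -0.13, and limma called 0 with or without the block. Its most abundant gene, Fabp5, stood at 467 ± 49.5 FPKM against 519 ± 48.6.

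**Figure D4:**
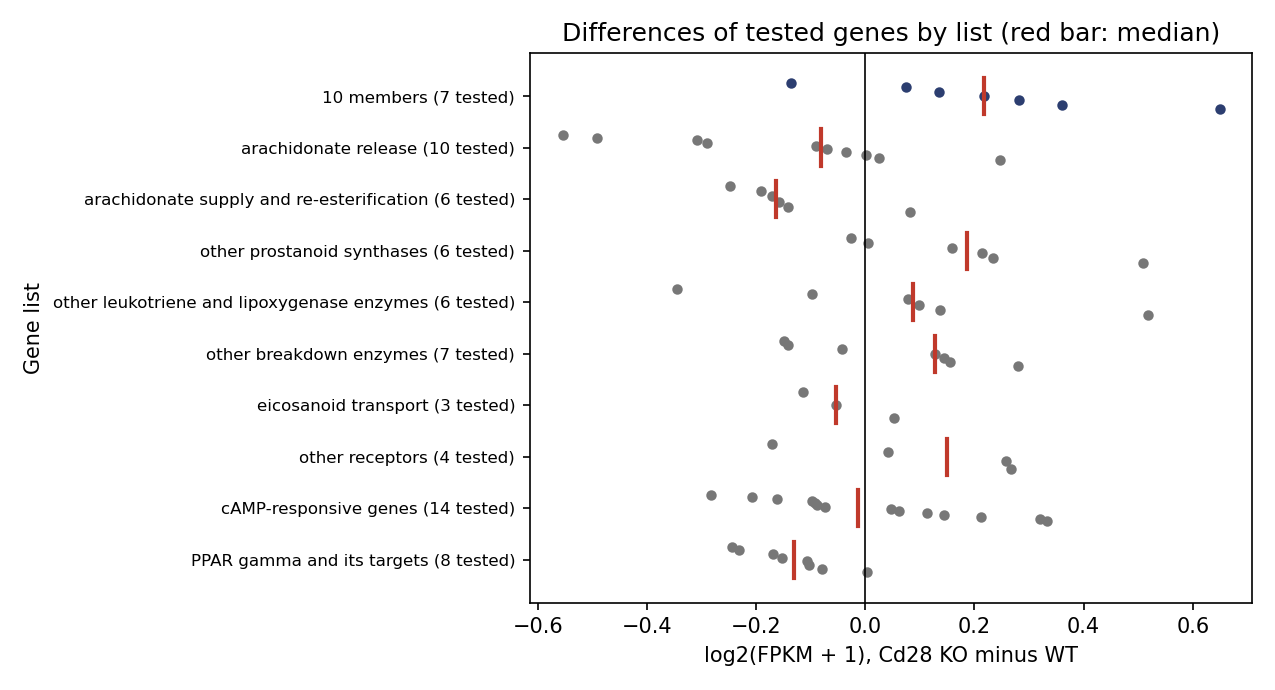
Cd28 KO minus WT in log2(FPKM + 1) for the tested genes of the 10 members and of each further list, 1 point per gene, with a red bar at the list's median. The members' median is 0.22 and those of the other lists lie between -0.16 and 0.19.

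The genes whose pattern was most like that of Hpgd were sought among 5725 others with a mean of at least 10 FPKM, by Pearson's r of log2(FPKM + 1) over the 6 libraries. The highest were Rab9 (0.987), Ifi211 (0.986), Ifi47 (0.981), Susd3 (0.979) and Gtf3a (0.978). The interferon-inducible Ifi211 stood at 76.4, 70.8 and 59.7 FPKM in Cd28 KO and 55.9, 53.4 and 45.0 in WT, the same order of libraries within each genotype as Hpgd. It belongs to a family of similar copies, so its own level is uncertain. Rab9, a small GTPase of late endosomes, stood at 52.8, 45.9 and 37.9 FPKM against 37.3, 38.3 and 31.3. An r of at least 0.9 was reached by 102 of the 5725 genes, and all share the 6 libraries and the gap of replicate 3. None of the 5 was called by limma in either fit.

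Between members, the correlation over the 6 libraries was lowest for Ptgs2 with Ptger4 (-0.95) and highest for Hpgds with Ptger2 (0.90). The first pair rests on replicate 3, where Ptgs2 was highest and Ptger4 lowest. Hpgd had its highest value with Ptgs1 (0.67) and its lowest with Ptgs2 (-0.69). These are descriptions over 6 libraries that share those 2 outlying samples.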

How the data were processed

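Total RNA of 3 Cd28 KO and 3 WT macrophage cultures was profiled, grouped by sample title. The deposited values are FPKM, made by the authors with Bowtie and RSEM on GRCm38, per the submitters' processing notes (versions: not given in the sources used here). A file listed genes above 0 only, from 0.01 FPKM, and a missing gene was counted as 0. Of 14574 Entrez identifiers 14551 matched RefSeq for GRCm38.p6, the source of symbols, coordinates and promoters. Overlapping exons came from GENCODE. No 2 libraries shared over 0.45% of values.

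The 10172 genes whose mean reached 1 FPKM were fitted in limma 3.58.1 (R 4.3.3) on log2(FPKM + 1), which understates changes of low genes, with empirical Bayes and trend and no block. A call was an adjusted p (Benjamini-Hochberg) under 0.05 in a two-sided test. The fit was also run on simulated data in which libraries of one replicate number shared an effect. That run assumes the pairing, its outcome is not given here, and nothing rests on it. Deviations from group means correlated at 0.752, 0.505 and 0.783 for replicates 1, 2 and 3, all over 0.1. On that basis, from the data and not a label, libraries of one number were treated as pairs in the replicate block. Replicate 1 and 2 libraries also correlated crosswise, at 0.535 and 0.663, above the 0.505 of the replicate 2 pair. These pass the same threshold, so it cannot tell which replicate 1 and 2 libraries belong together. The call of Hpgd with the block rests on this pairing. Alternatives were another pseudocount, other filters, 3 scalings, the replicate block, each library left out and replicates 1 and 2 alone.

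Members and lists were chosen with earlier results of these data known. Named are all members, the most abundant gene of each list, list genes called, and those without overlap and with a log2 difference of at least 0.3, the 5 genes most like Hpgd, and Cd28, except that the most abundant of the other receptors is not reported here. Other named genes were chosen after their values were seen. Python 3.11.15 with NumPy 2.4.6, pandas 2.3.3 and Matplotlib 3.10.9 did the rest.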

Additional observations from a re-analysis of the deposited data

How the results depend on the processing

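Limma called 2 genes over the whole table. This count was 5 without the filter, 18 with the replicate block and 71 in replicates 1 and 2 alone, and stayed at 2 under each other alternative, including each library left out. Of the members, 0 were called, and 1, Hpgd, was called with the replicate block and 1, again Hpgd, in replicates 1 and 2 alone. Of the other pathway genes 0 were called, and 2 (Pla2g7 and Fabp4, both lower in Cd28 KO) in replicates 1 and 2 alone. The replicate block changed no other call among the members or lists. Separation of the groups, a comparison of scales added after seeing the data, held in FPKM, on the TPM scale, with median centring and with quantile normalization for 3, 1, 2 and 1 members, all with Cd28 KO above. In that order these were Hpgd, Ptgs1 and Tbxas1, then Alox5ap, then Hpgd and Ptgs1, and last Ptgs1. Of the other eicosanoid genes 2, 1, 2 and 1 lay wholly above and 3, 5, 3 and 4 wholly below. Signs changed in small differences, besides that of Ptger4 as given. With each library left out in turn, Abhd12 ranged from -0.139 to 0.038 (positive without WT replicate 2), Dpep2 from -0.045 (without WT replicate 3) to 0.187, Ephx1 from -0.010 (without Cd28 KO replicate 3) to 0.204 and Rgs2 from -0.075 (without WT replicate 3) to 0.219. In replicates 1 and 2 alone Dpep2 was -0.12 and Ephx1 -0.023. The cause was not tested. With 3 libraries a group and no read counts, the precision of Ptgs2, Ptges and Ptger2 is unknown.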
